A study of Mus musculus with 8 samples.

Results

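The genes described are 10 genes of the NF-kB pathway: the subunit genes Rela, Relb, Nfkb1 and Nfkb2, the inhibitor genes Nfkbia, Nfkbib and Nfkbie, and the feedback and ubiquitin ligase genes Tnfaip3, Birc2 and Birc3. They were taken as every probe that carries 1 of these symbols in the scanner files, 15 of the 41174 probes of the array. Of these 15 probes 12 passed the filter on dim signals, which gave 9 of the 13410 genes tested, since neither Birc3 probe passed. The cells were LLC1, a line derived from a C57BL/6 mouse lung cancer, and all RNA was taken 4 h after X-ray treatment. The regimens were 1 exposure to 2 Gy, with 3 arrays, 1 exposure to 10 Gy, with 2 arrays and the third replicate not analysed here, and 5 fractions of 2 Gy, written 5x2 Gy, with 3 arrays. Every array carried untreated LLC1 RNA in Cy3 and irradiated LLC1 RNA in Cy5, so that an effect of the dye and an effect of irradiation cannot be told apart. The labels call the replicates biological, and do not give the time between the fractions.

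NF-kB is a family of dimeric transcription factors built from the Rel proteins. In resting cells the IkB proteins hold the dimers in the cytoplasm, and an inducing signal, DNA damage among them, activates the IKK kinases, which mark IkB for destruction and let the dimers enter the nucleus. NF-kB switches on several of its own inhibitors, so the genes for IkB-alpha (Nfkbia) and A20 (Tnfaip3) are textbook feedback targets of the pathway, as is Nfkb2, whose product p100 is both an inhibitor and the precursor of the p52 subunit.

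The stretches upstream of 4 of the genes are shown because these genes carry the differences described here and differ in whether the NF-kB recognition sequence, the 10-base kB consensus, lies close to the start. Each line gives the 150 bases before the annotated start, 5' to 3' on the gene's own strand, from RefSeq on GRCm38.p6. Capitals mark matches to the kB consensus on either strand. Nfkb2 and Rela lie on the plus strand, Nfkbia and Tnfaip3 on the minus strand.

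Nfkb2 chr19:46304587-46304736: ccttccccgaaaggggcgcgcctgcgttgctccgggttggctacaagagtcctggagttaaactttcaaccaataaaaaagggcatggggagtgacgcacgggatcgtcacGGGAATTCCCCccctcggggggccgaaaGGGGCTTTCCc
Nfkbia chr12:55492648-55492797: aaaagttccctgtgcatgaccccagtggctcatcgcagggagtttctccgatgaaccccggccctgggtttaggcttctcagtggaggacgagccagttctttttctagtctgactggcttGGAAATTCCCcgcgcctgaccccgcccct
Tnfaip3 chr10:19015411-19015560: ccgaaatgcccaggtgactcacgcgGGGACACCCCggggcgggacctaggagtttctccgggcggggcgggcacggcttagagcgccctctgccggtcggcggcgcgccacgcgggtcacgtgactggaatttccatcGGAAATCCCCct
Rela chr19:5637391-5637540: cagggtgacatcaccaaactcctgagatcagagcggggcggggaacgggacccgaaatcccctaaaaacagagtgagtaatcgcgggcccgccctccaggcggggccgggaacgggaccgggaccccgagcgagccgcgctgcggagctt

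In Nfkb2 the capitals from -39 to -29 hold overlapping matches on both strands, and a further match lies from -11 to -2 on the plus strand. Nfkbia had 1 match, from -29 to -20 on the minus strand, and Tnfaip3 had matches from -125 to -116 on the plus strand and from -12 to -3 on the minus strand. Rela had no match in this stretch. Over the full 300-base windows (250 bases before to 50 after the start) that the RefSeq table holds for 8 of the 10 genes, 4 genes had a match, namely Nfkb2, Nfkbia, Tnfaip3 and Nfkbie, where it ran from -106 to -97. Among all 27025 genes with windows of this length, 5.14% had a match in at least 1 window. A match is a stretch of letters and not a measured binding site. Nfkb1 and Relb were not matched to a window.

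On slide 2, which held the second 10 Gy array and the 3 arrays of 5x2 Gy, the ratios depended on where a probe was printed, and this touches every value given here. On these 4 arrays the median log2 ratio was 0.19 to 0.24 in spot columns 1 to 137, called the left side, and -0.27 to -0.22 in columns 138 to 266, the right side. The step of 0.40 to 0.50 log2 units arose between neighbouring columns. It was seen in the Cy5 signal, which was 0.54 to 0.59 log2 units higher on the left, and hardly in the Cy3 signal, where the difference was 0.01 to 0.09. Negative control spots showed it too, with 0.52 to 0.59 in Cy5. The 4 arrays of slide 1, the 3 arrays of 2 Gy and the first of 10 Gy, had steps between -0.06 and 0.09. Of the genes called at 5x2 Gy (limma adjusted p under 0.05), 88.1% were higher in irradiated cells among those printed on the left and 8.23% among those printed on the right. When the 2 sides of each array were background corrected and normalized apart, these shares were 54.8% and 54%. The tested probes of Rela, Nfkb2 and Nfkbia lie on the left side, those of Relb, Nfkbib, Nfkbie, Tnfaip3 and Birc2 on the right side, and the Nfkb1 probe has 5 spots in each. Values are therefore given with both normalizations, over the whole array and with the sides apart. The second was chosen after the step had been seen.

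**Figure D1:**
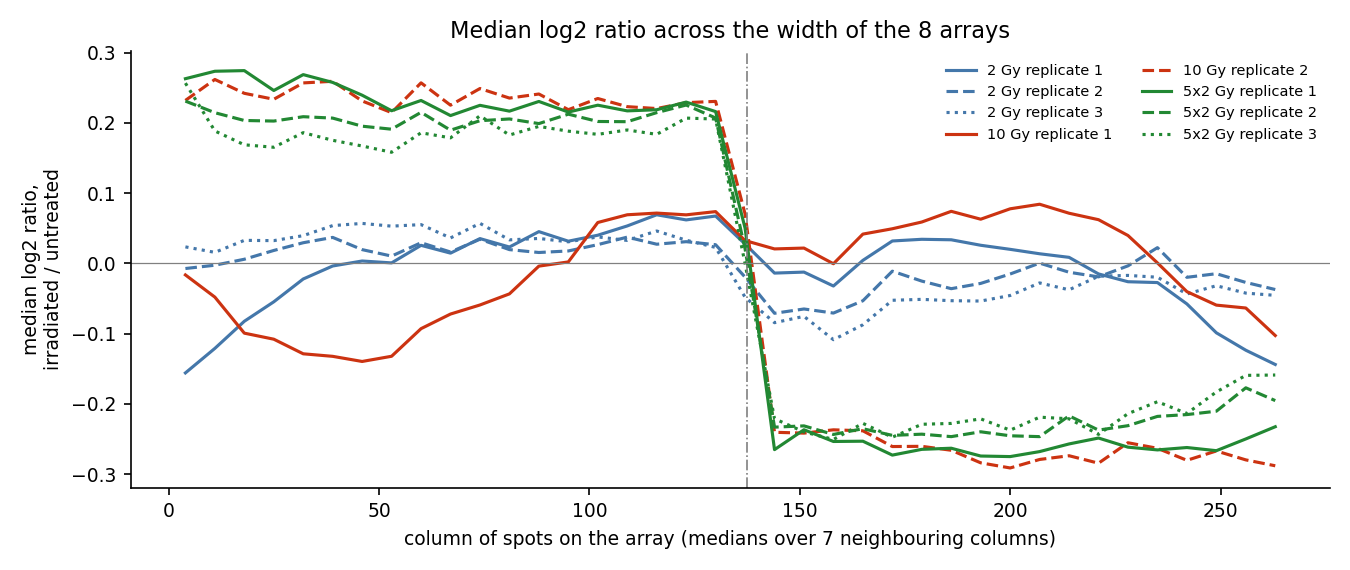
Median log2 ratio of irradiated over untreated signal (vertical axis) across the columns of spots from the left to the right edge of the array (horizontal axis, medians over 7 neighbouring columns), with 1 line for each of the 8 arrays and a vertical line at the step. The second 10 Gy array and the 3 arrays of 5x2 Gy lie between 0.16 and 0.27 left of the step and between -0.29 and -0.16 right of it, and the 4 other arrays lie between -0.16 and 0.08 throughout.

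Differences were tested with limma over all 13410 genes, with Benjamini-Hochberg adjusted p under 0.05 counted as a call. At 2 Gy 2 of the 9 genes tested were called (17% of all genes), 1 higher (9.01% of all genes) and 1 lower (7.95%). At 10 Gy 4 of 9 were called (28.2% of all genes), 2 higher (12.4%) and 2 lower (15.8%). At 5x2 Gy 4 of 9 were called (41% of all genes), 3 higher (17.6%) and 1 lower (23.4%). With each side normalized on its own, 3 of 9 were called at 2 Gy (21.8% of all genes), 2 higher (11.3%) and 1 lower (10.4%). The counts were 5 of 9 at 10 Gy (29%), 3 higher (13.5%) and 2 lower (15.6%), and 5 of 9 at 5x2 Gy (27.4%), 4 higher (15%) and 1 lower (12.4%). All 10 calls of the whole-array normalization were also made with the sides apart. No test compares these counts with the shares over all genes. The median log2 ratio of the 9 genes was 0.26 at 2 Gy, 0.20 at 10 Gy and 0.05 at 5x2 Gy, beside -0.00, -0.06 and -0.02 over all genes. When the sides were normalized apart, it was 0.24, 0.30 and 0.32.

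**Figure D2:**
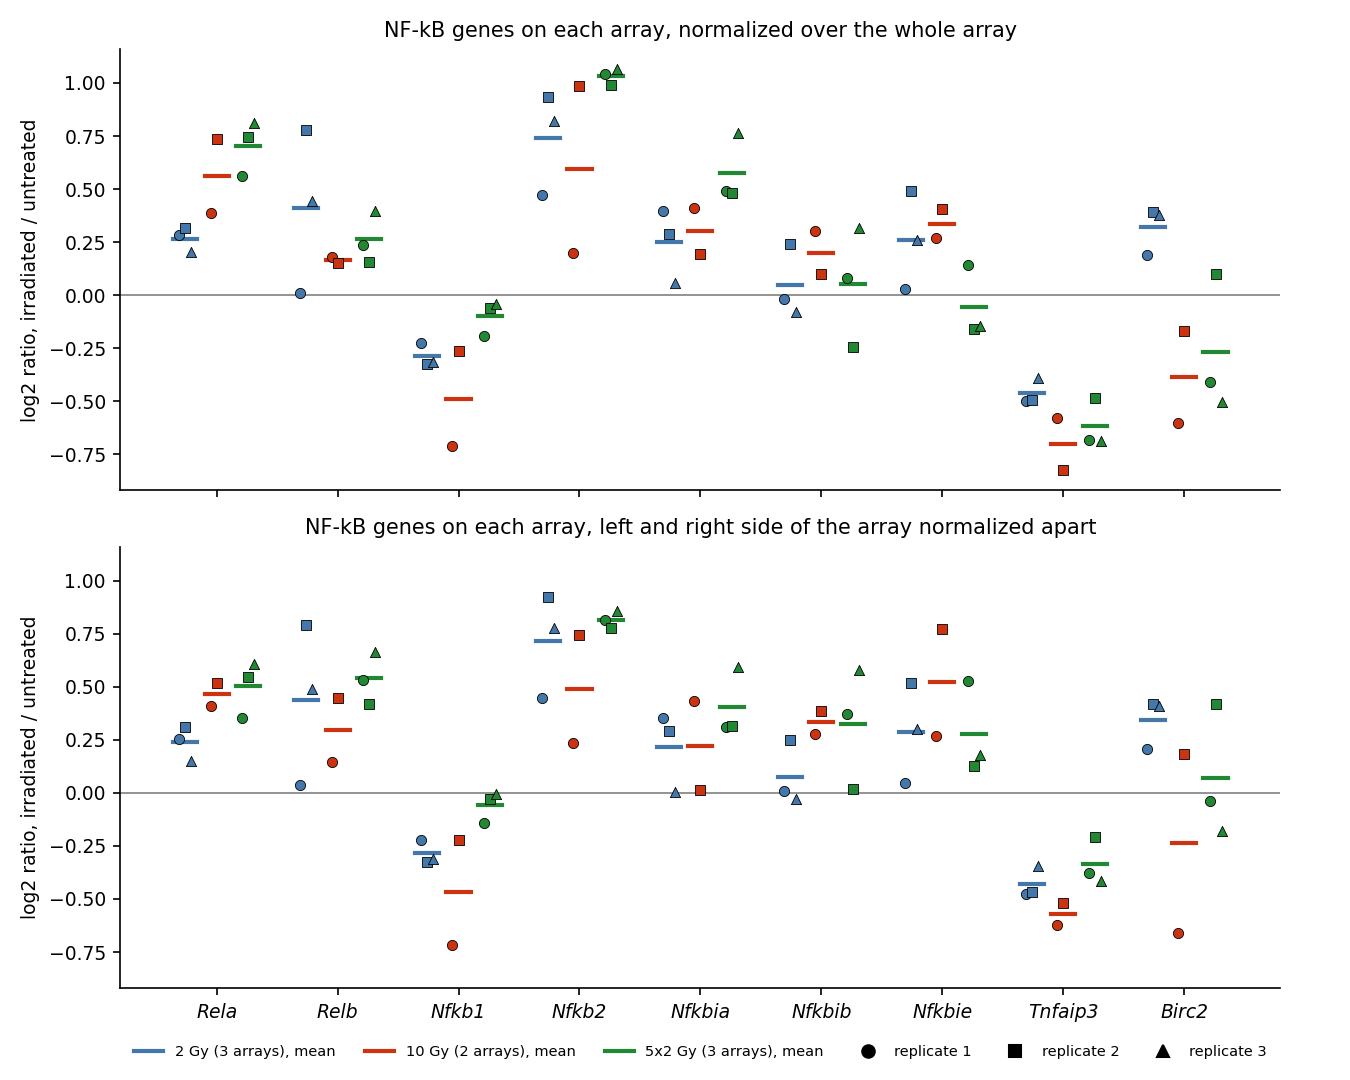
Log2 ratio of irradiated over untreated signal (vertical axis) for the 9 genes tested, with 1 point for each array, a horizontal bar for each regimen's mean, colours for the regimens and symbols for the replicates. The upper panel is normalized over the whole array and the lower panel with its sides apart. Nfkb2, Rela, Relb and Nfkbia lie above 0 and Tnfaip3 and Nfkb1 below 0 on all 8 arrays in both panels.

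Nfkb2, the subunit gene whose product p100 is described above, had the highest mean log2 ratio of the 9 genes in each regimen over the whole array, and with the sides apart at 2 Gy and 5x2 Gy, where at 10 Gy the dim Nfkbie probe was higher (0.52 against 0.49). The log2 ratio was 0.47, 0.93 and 0.82 on the 2 Gy arrays, 0.20 and 0.99 on the 10 Gy arrays and 1.04, 0.99 and 1.06 on the 5x2 Gy arrays. All 8 values were above 0, the first 10 Gy array gave the lowest, and the 5x2 Gy arrays lay above all others. The mean was 0.74 ± 0.15 (SE, n = 3) at 2 Gy (limma adjusted p = 0.0099), 0.59 ± 0.18 (n = 2) at 10 Gy (adjusted p = 0.034) and 1.03 ± 0.15 (n = 3) at 5x2 Gy (adjusted p = 0.00083), the last a rise of 2.05-fold. With the sides apart the means were 0.72, 0.49 and 0.81 (limma adjusted p = 0.0043, 0.032 and 0.0018). The values of 5x2 Gy, now 0.81, 0.78 and 0.86, then fell within the span of the 2 Gy arrays, 0.45 to 0.92. The 10 Gy rise rested on the second array: without it the value was that of the first array alone, 0.20. The 10 Gy call was lost without the third 2 Gy array or any 1 of the 5x2 Gy arrays (limma adjusted p = 0.057 to 0.059), which enter through the shared estimate of spread. Without the second or the third 2 Gy array the 2 Gy value was 0.65 or 0.70 (adjusted p = 0.094 and 0.089).

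Rela encodes p65, a subunit with a strong activation domain. Its log2 ratio was 0.28, 0.32 and 0.20 at 2 Gy, 0.39 and 0.74 at 10 Gy and 0.56, 0.74 and 0.81 at 5x2 Gy. The 2 Gy arrays lay below all others, and the 10 Gy and 5x2 Gy arrays overlapped. Rela rose at 10 Gy by 0.56 ± 0.12 (SE, n = 2; limma adjusted p = 0.0085) and at 5x2 Gy by 0.71 ± 0.10 (n = 3; adjusted p = 0.00083), while its value at 2 Gy was 0.27 ± 0.10 (n = 3; adjusted p = 0.092). With each side normalized on its own, the rises were 0.46 (adjusted p = 0.010) and 0.50 (adjusted p = 0.0032), and the 2 Gy value was 0.24 (adjusted p = 0.072).

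A second Rela probe, printed in 10 spots on each array, 7 left and 3 right, gave a repeat measurement within each array. Its means over the spots were 0.29, 0.41 and 0.36 at 2 Gy, 0.69 and 0.40 at 10 Gy and 0.53, 0.63 and 0.63 at 5x2 Gy. Of its 80 spots on the 8 arrays 77 were above 0. In a fit over all kept probes this probe was called at 2 Gy (0.35, limma adjusted p = 0.027), 10 Gy (0.55, adjusted p = 0.0063) and 5x2 Gy (0.59, adjusted p = 0.0011). With the sides apart its means were 0.34, 0.52 and 0.52. Over the whole array its spots on the second 10 Gy array averaged 0.59 on the left and -0.03 on the right. On the 5x2 Gy arrays they averaged 0.68 to 0.80 on the left and 0.17 to 0.30 on the right. The 10 spots of 1 array had an SD of 0.25 to 0.32 on slide 2 and of 0.06 to 0.23 on slide 1. When the sides were normalized apart, the SD on slide 2 was 0.11 to 0.15.

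Nfkb1 encodes p105, the precursor of p50, and p50 is the usual partner of p65. Its tested probe, also printed in 10 spots, averaged -0.22, -0.33 and -0.31 at 2 Gy, -0.71 and -0.26 at 10 Gy and -0.19, -0.06 and -0.04 at 5x2 Gy. All 8 means were below 0, the first 10 Gy array was the lowest, and the 5x2 Gy arrays lay above all others. Nfkb1 fell by 0.49 ± 0.13 (SE, n = 2) at 10 Gy (limma adjusted p = 0.018). Without the first 10 Gy array the value was that of the second array alone, -0.26. The means at 2 Gy and 5x2 Gy were -0.29 ± 0.10 (adjusted p = 0.083) and -0.10 ± 0.10 (adjusted p = 0.47).

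The spots of this Nfkb1 probe separated by their place on slide 2. On each of the 3 arrays of 5x2 Gy the 5 spots on the left were above 0, with means of 0.11, 0.16 and 0.16, and the 5 on the right below 0, with means of -0.49, -0.27 and -0.24. On the 2 Gy arrays all 30 spots were below 0. Since the probe has equal numbers of spots on both sides, its mean hardly moved when the sides were normalized apart, to -0.29, -0.47 and -0.06 (limma adjusted p = 0.071, 0.020 and 0.70), and the SD over the 10 spots on slide 2 fell from 0.24 to 0.32 to 0.06 to 0.12. The other Nfkb1 probes were dim. 1 did not pass the filter, and each of the 2 kept ones was above 0 on 4 arrays and below 0 on 4. At 10 Gy 1 of these was at -0.96 and 0.02, and the other at -0.07 and 0.11. The first of these had a mean of -0.47 (limma adjusted p = 0.13 over all kept probes), and of -0.54 with the sides apart (adjusted p = 0.056), so neither was called. Averaged over the kept probes the 10 Gy value was -0.31 (adjusted p = 0.092).

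**Figure D3:**
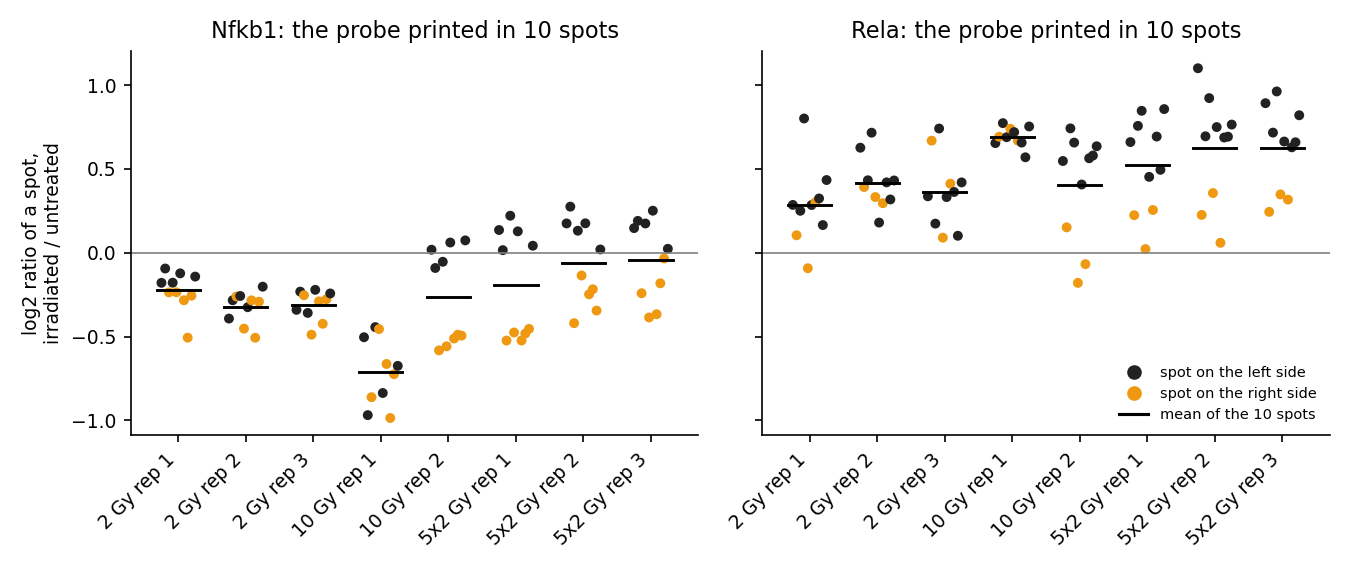
Log2 ratio of single spots (vertical axis) of the Nfkb1 probe (left panel) and the second Rela probe (right panel), each printed 10 times on each of the 8 arrays (horizontal axis), with colours for the side of the array and a bar for the mean of the 10 spots. On the 3 arrays of 5x2 Gy the Nfkb1 spots of the left side lie above 0 and those of the right side below 0, and the Rela spots of both sides lie above 0.

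Relb encodes the subunit that pairs with p52 in the non-canonical branch of the pathway. The log2 ratio was 0.01, 0.78 and 0.45 at 2 Gy, 0.18 and 0.15 at 10 Gy and 0.24, 0.16 and 0.40 at 5x2 Gy. The 3 regimens overlapped and all 8 values were above 0. Normalized over the whole array, Relb was not called in any regimen, with means of 0.41 ± 0.13 (SE, n = 3; limma adjusted p = 0.061), 0.17 ± 0.16 (n = 2; adjusted p = 0.48) and 0.26 ± 0.13 (n = 3; adjusted p = 0.14). With the sides apart its mean at 5x2 Gy was 0.54 (adjusted p = 0.017) and at 2 Gy 0.44 (adjusted p = 0.044), and both were called. Relb was thus called under 1 of the 2 normalizations.

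Of the inhibitors, Nfkbia, which encodes the fast-acting IkB-alpha, had the brightest probe of the family, 24.9 to 57.8 times the detection threshold in untreated cells. The threshold lay 2.6 robust SD above the median negative control spot of that array and channel. Its log2 ratio was 0.40, 0.29 and 0.06 at 2 Gy, 0.41 and 0.20 at 10 Gy and 0.49, 0.48 and 0.76 at 5x2 Gy. The 5x2 Gy arrays lay above all others. Nfkbia rose at 5x2 Gy by 0.58 ± 0.10 (SE, n = 3), or 1.49-fold (limma adjusted p = 0.0026), and its means at 2 Gy and 10 Gy were 0.25 ± 0.10 (adjusted p = 0.13) and 0.30 ± 0.13 (adjusted p = 0.10). With each side normalized on its own, the 5x2 Gy value was 0.41 (adjusted p = 0.026), and the arrays, now at 0.31, 0.32 and 0.59, overlapped those of 2 Gy (0.35, 0.29 and 0.00) and 10 Gy (0.43 and 0.01). With arrays centred on their median in place of loess the 2 Gy and 10 Gy means were 0.80 (adjusted p = 0.0049) and 0.82 (adjusted p = 0.0087). Its spot carried a flag, of a meaning not given, on 6 of 8 arrays.

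Nfkbib, which encodes IkB-beta, was not called in any regimen under either normalization. The log2 ratio was -0.02, 0.24 and -0.08 at 2 Gy, 0.30 and 0.10 at 10 Gy and 0.08, -0.24 and 0.31 at 5x2 Gy. The regimens overlapped. When the sides were normalized apart, its mean at 5x2 Gy was 0.32 ± 0.11 (SE, n = 3; limma adjusted p = 0.060), beside 0.05 over the whole array.

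Nfkbie, which encodes IkB-epsilon, lay at the detection limit, with 1 untreated and 1 irradiated signal of 8 above the threshold. Its log2 ratio was 0.03, 0.49 and 0.26 at 2 Gy, 0.27 and 0.40 at 10 Gy and 0.14, -0.16 and -0.15 at 5x2 Gy. None of its means was called over the whole array (limma adjusted p = 0.092 to 0.73). With the sides apart the 10 Gy mean was 0.52 ± 0.16 (SE, n = 2; adjusted p = 0.036) and the 5x2 Gy mean 0.28 (adjusted p = 0.14). At this signal its ratios do not show a level.

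**Figure D4:**
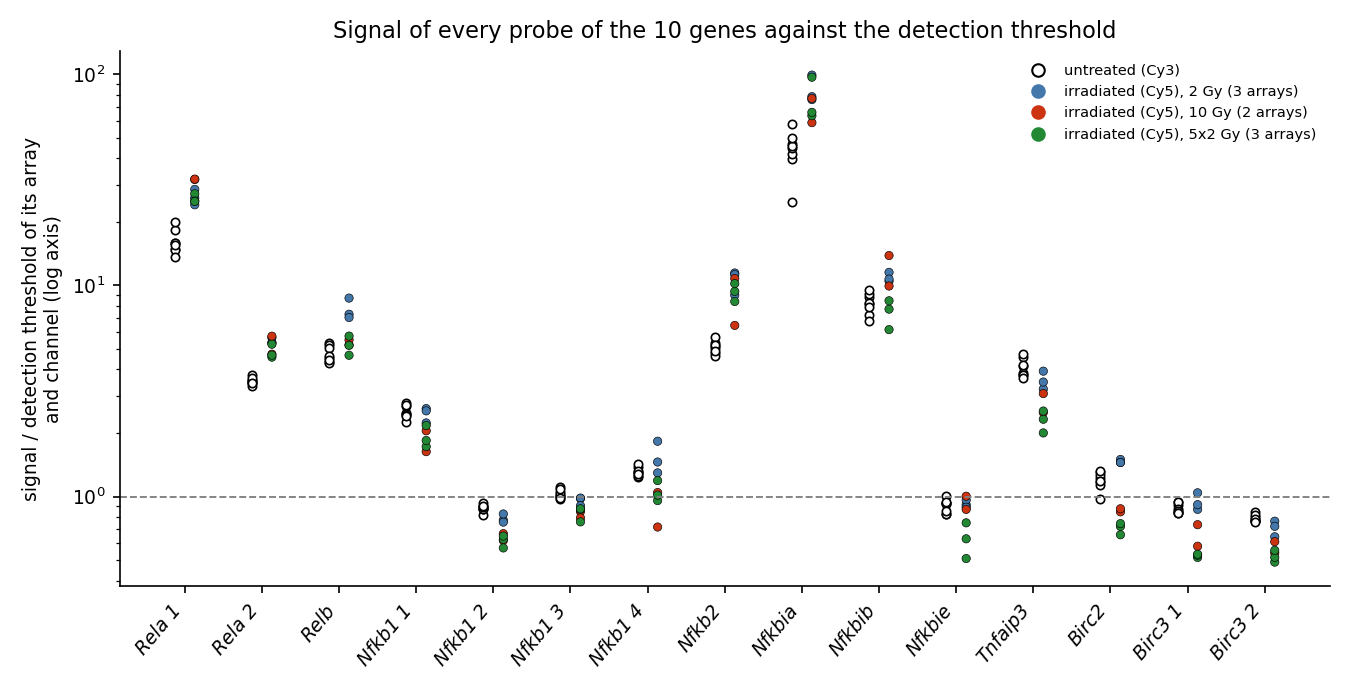
Signal of each of the 15 probes of the 10 genes divided by the detection threshold of its array and channel (vertical axis, logarithmic), with open points for untreated cells and coloured points for irradiated cells on the 8 arrays, and a dashed line at the threshold. Nfkbia and the first Rela probe are far above the line, and Nfkbie, Birc2, Birc3 and the further Nfkb1 probes lie near or below it.

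Tnfaip3, the gene of the deubiquitinase A20 that shuts the pathway off, was lower in irradiated cells in all 3 regimens. The log2 ratio was -0.50, -0.49 and -0.39 at 2 Gy, -0.58 and -0.83 at 10 Gy and -0.68, -0.48 and -0.69 at 5x2 Gy. All 8 values were below 0, and the 10 Gy arrays lay below all 2 Gy arrays. Tnfaip3 fell by 0.46 ± 0.09 (SE, n = 3) at 2 Gy (limma adjusted p = 0.011), by 0.70 ± 0.11 (n = 2) at 10 Gy (adjusted p = 0.0022) and by 0.62 ± 0.09 (n = 3) at 5x2 Gy (adjusted p = 0.0011). The probe lies on the right side, and with the sides apart the means were -0.43, -0.57 and -0.33 (adjusted p = 0.0076, 0.0039 and 0.016). The 5x2 Gy fall was thus the value of Tnfaip3 that moved most. Without any 1 of the 2 Gy arrays the 2 Gy call was lost (adjusted p = 0.060 to 0.085).

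Birc2 and Birc3 encode cIAP1 and cIAP2, ubiquitin ligases that act at the receptors and keep the NF-kB-inducing kinase low. The Birc2 probe was dim, above the threshold in 7 of 8 untreated signals and in 3 of 8 irradiated ones, those of the 2 Gy arrays. Its log2 ratio was 0.19, 0.39 and 0.38 at 2 Gy, -0.60 and -0.17 at 10 Gy and -0.41, 0.10 and -0.50 at 5x2 Gy. The 2 Gy arrays lay above all others, and no mean against untreated cells was called (limma adjusted p = 0.10 to 0.13). With each side normalized on its own, the 5x2 Gy mean was 0.07, where it was -0.27 over the whole array, and the arrays of 5x2 Gy overlapped those of 2 Gy. Both Birc3 probes were below the threshold in all untreated signals, and 1 of them was above it in 1 irradiated signal, so Birc3 has no ratio here.

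The question whether the regimens differ from each other was tested with the same fit. No member was called between 10 Gy and 2 Gy (2.56% of all genes called), between 5x2 Gy and 2 Gy (1.3%) or between 5x2 Gy and 10 Gy (0%). By direction, 1.04% of all genes were higher and 1.52% lower at 10 Gy than at 2 Gy, and 0.38% higher and 0.925% lower at 5x2 Gy than at 2 Gy. When the sides were normalized apart, again none was called, and the shares of all genes were 0.537% (0.201% higher, 0.336% lower), 0.0522% (0.0149% higher, 0.0373% lower) and 0%. At an unadjusted limma p under 0.05 there were 1, 2 and 1 of the 9 members, beside 2738, 3433 and 2241 of all 13410 genes. With the sides apart there were 1, 0 and 1 members, beside 2796, 1949 and 2312 genes. No gene of the array was called between 5x2 Gy and 10 Gy under either normalization.

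The differences nearest to a call were those of Birc2 and Rela, and those of Nfkb1 and Nfkbia, further from a call, are given too. For Birc2, 5x2 Gy minus 2 Gy was -0.59 ± 0.19 (SE; limma adjusted p = 0.10), and -0.28 ± 0.23 with the sides apart (adjusted p = 0.61). For Birc2, 10 Gy minus 2 Gy was -0.70 ± 0.21 (SE; limma adjusted p = 0.11), and -0.58 ± 0.25 with the sides apart (adjusted p = 0.23). With slide as a random block this difference was called (-0.85, limma adjusted p = 0.014). That fit called 2896 of the 13410 genes between 10 Gy and 2 Gy, beside 343 without the block. The irradiated Birc2 signals at 10 Gy lay below the threshold. Within slide 1 alone the Birc2 difference of 10 Gy minus 2 Gy was -0.92, the first 10 Gy array against the 3 arrays of 2 Gy, with no test. For Rela, 5x2 Gy minus 2 Gy was 0.44, with a 95% interval from 0.12 to 0.75, and with the sides apart 0.26, with an interval from -0.00 to 0.53. For Nfkb1, 5x2 Gy minus 10 Gy was 0.39, with an interval from 0.03 to 0.75, and 0.41 with the sides apart. For Nfkbia, 5x2 Gy minus 2 Gy was 0.33 over the whole array and 0.19 with the sides apart, with an interval from -0.17 to 0.55 in the latter, which spans 0.

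Leaving out 1 of the 10 Gy arrays left a lone array in that regimen, so only differences are given here for these fits. Without the second 10 Gy array, 10 Gy minus 2 Gy was -0.42 for Nfkb1, -0.54 for Nfkb2 and -0.92 for Birc2. In that fit 5x2 Gy minus 10 Gy was 0.61 for Nfkb1 and 0.83 for Nfkb2. Without either 10 Gy array in turn, 5x2 Gy minus 2 Gy was 0.44 for Rela and -0.59 for Birc2, as with all arrays. For these contrasts calls over all genes became far more numerous, so calls of members there are not particular to them. These contrasts rest on 1 array at 10 Gy, or on a spread estimated with 1, and the lone array is assumed to vary like the others.

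**Figure D5:**
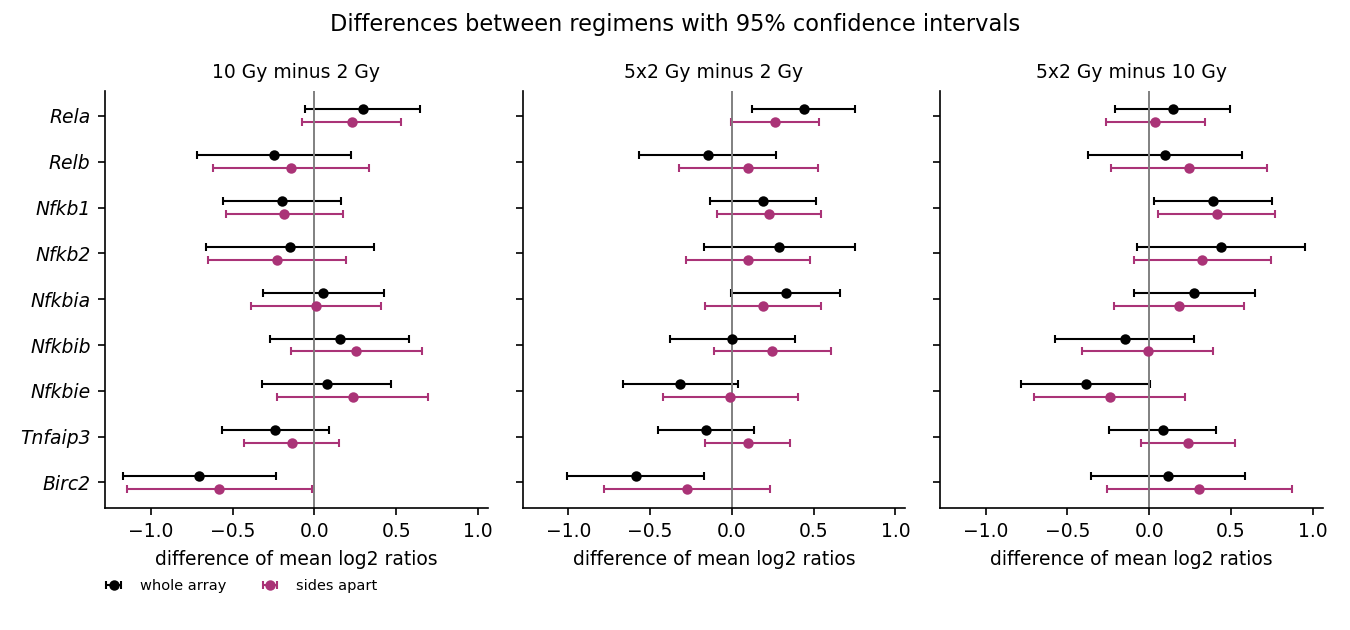
Differences between the mean log2 ratios of 2 regimens (horizontal axis) for the 9 genes tested (vertical axis), with points for the estimates and bars for their 95% confidence intervals, in black for the whole-array normalization and in purple with the sides apart. Most intervals span 0, and the estimates of both normalizations lie within each other's intervals.

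The slides set a further limit. All 2 Gy arrays lay on slide 1 and all 5x2 Gy arrays on slide 2, so only the 10 Gy pair links them. With slide as a random block (within-slide correlation 0.70) 9 of the 10 calls against untreated cells were lost, at limma adjusted p from 0.071 to 0.24, and Tnfaip3 at 10 Gy alone was called (adjusted p = 0.027). Over all genes the calls went from 2274 to 21 at 2 Gy, from 3783 to 1464 at 10 Gy and from 5492 to 817 at 5x2 Gy. With the sides apart the correlation was 0.58, and again Tnfaip3 at 10 Gy was the only one of the 10 still called (adjusted p = 0.024). Calls over all genes then went from 2917 to 65, from 3894 to 2077 and from 3672 to 811. The signs of Nfkb2, Rela, Nfkbia and Tnfaip3 against untreated cells were the same under every alternative. As all 8 values of each gene lay on 1 side of 0, leaving out arrays or fitting 1 regimen alone could not change them.

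The rest of the pathway was described by 6 gene lists. Counts and values are over the whole array, and those with the sides apart follow. Beside every list count stand the shares of all genes called. These were 9.01% higher and 7.95% lower at 2 Gy, 12.4% and 15.8% at 10 Gy, and 17.6% and 23.4% at 5x2 Gy. With the sides apart they were 11.3% and 10.4%, 13.5% and 15.6%, and 15% and 12.4%. No test compares the list counts with these shares. Of 4 tested further Rel and IkB genes 3 rose at 2 Gy, 1 at 10 Gy and 2 at 5x2 Gy, and none fell. Under separate normalization of the sides 3, 1 and 1 rose and none fell. Nfkbil1, a gene of an IkB-like protein, rose by 0.58 ± 0.11 (SE, n = 3; limma adjusted p = 0.0090), 0.85 ± 0.14 (n = 2; adjusted p = 0.0022) and 0.77 ± 0.11 (n = 3; adjusted p = 0.00095), and by 0.56, 0.74 and 0.55 with the sides apart (adjusted p = 0.017, 0.0089 and 0.013). Rel, the c-Rel subunit, rose at 2 Gy by 0.41 ± 0.11 (adjusted p = 0.038; 0.39 with the sides apart, adjusted p = 0.037). The list's medians were 0.495, 0.39 and 0.24.

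Among 13 tested genes of the IKK complex and its upstream kinases 1 rose at 2 Gy, 3 rose and 3 fell at 10 Gy, and 3 rose and 2 fell at 5x2 Gy. With each side normalized on its own, the counts at 2 Gy and 10 Gy were the same, and 5 rose and 3 fell at 5x2 Gy, of which 2 and 0 were called in the same direction over the whole array. Ikbkg, which encodes the scaffold NEMO that carries the DNA damage signal to IKK, rose by 0.86 ± 0.12 at 10 Gy (n = 2; limma adjusted p = 0.0012) and by 0.69 ± 0.10 at 5x2 Gy (n = 3; adjusted p = 0.00090). Its rises were 0.76 and 0.51 with the sides apart (adjusted p = 0.0039 and 0.0087). These values come from the brightest of 3 kept Ikbkg probes. For 10 Gy minus 2 Gy this probe gave 0.73 and the mean of the 3 gave 0.37. Chuk, the gene of IKK-alpha, fell by 0.49 ± 0.10 at 5x2 Gy (adjusted p = 0.0043), and was -0.21 with the sides apart (adjusted p = 0.099). In the list of the DNA damage route, with 10 tested genes, 1 rose and 2 fell at 2 Gy, 2 and 2 at 10 Gy, and 2 and 3 at 5x2 Gy. These counts became 1 and 2, 2 and 2, and 2 and 1 with the sides apart. Pias4, the SUMO ligase that modifies NEMO, rose in all 3 regimens, by 0.63 ± 0.09, 0.86 ± 0.11 and 0.89 ± 0.09 (limma adjusted p = 0.0033, 0.00090 and 0.00025), and by 0.60, 0.76 and 0.67 with the sides apart (adjusted p = 0.0027, 0.0016 and 0.0011). Usp10 fell by 0.45 ± 0.09, 0.89 ± 0.11 and 0.45 ± 0.09 (adjusted p = 0.0088, 0.00066 and 0.0034), and with the sides apart was -0.42, -0.76 and -0.19 (adjusted p = 0.018, 0.0027 and 0.18).

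Of 22 tested TRAF and ubiquitin regulators 4 rose and 1 fell at 2 Gy, 3 and 2 at 10 Gy, and 7 and 2 at 5x2 Gy. When the sides were apart, these counts were 5 and 1, 5 and 3, and 7 and 0. Tnip2, which encodes a partner of A20, rose by 0.37 ± 0.10, 1.13 ± 0.12 and 0.52 ± 0.10 (limma adjusted p = 0.031, 0.00043 and 0.0032), and by 0.35, 1.04 and 0.35 with the sides apart (adjusted p = 0.032, 0.00071 and 0.029). Traf4 rose by 1.14 ± 0.12 at 10 Gy and 0.81 ± 0.10 at 5x2 Gy (adjusted p = 0.00043 and 0.00047; with the sides apart 1.04 and 0.61, adjusted p = 0.00043 and 0.0015). These values come from the brighter of 2 kept Traf4 probes. For 10 Gy minus 2 Gy this probe gave 1.02 and the mean of the 2 gave 0.59. Of 18 tested receptors and adaptors 3 rose and 2 fell at 2 Gy, 4 and 2 at 10 Gy, and 4 and 2 at 5x2 Gy. The counts were 5 and 2, 6 and 2, and 5 and 1 with the sides apart. Myd88, the adaptor of Toll-like and interleukin-1 receptors, rose by 1.11 ± 0.12 at 10 Gy (limma adjusted p = 0.00043; 1.10 with the sides apart, adjusted p = 0.00049). Il1rap, the accessory chain of the interleukin-1 receptor, fell in all 3 regimens, by 0.75 ± 0.12, 0.80 ± 0.14 and 0.78 ± 0.12 (adjusted p = 0.0038, 0.0034 and 0.0011). It was at -0.71, -0.68 and -0.49 with the sides apart (adjusted p = 0.010, 0.021 and 0.036).

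The list of textbook target genes held 45 genes, of which 44 were on the array and 30 were tested. Of these 7 rose and 1 fell at 2 Gy, 5 and 1 at 10 Gy, and 8 and 3 at 5x2 Gy. When the sides were normalized apart, the counts were 7 and 3 at 2 Gy, 6 and 1 at 10 Gy and 6 and 1 at 5x2 Gy, the last all called in the same direction over the whole array. Bcl2l1, the survival gene of Bcl-xL, rose in each regimen, by 0.66 ± 0.13, 1.10 ± 0.16 and 0.69 ± 0.13 (limma adjusted p = 0.0093, 0.0013 and 0.0029), and by 0.68, 1.16 and 0.82 with the sides apart (adjusted p = 0.0042, 0.00071 and 0.0013). Irf1 rose by 1.13 ± 0.19 at 10 Gy (adjusted p = 0.0024), and by 1.02 with the sides apart (adjusted p = 0.0081). Cxcl5, a neutrophil chemokine, rose by 1.02 ± 0.12 at 2 Gy (adjusted p = 0.0018) and 0.70 ± 0.12 at 5x2 Gy (adjusted p = 0.0022), and by 0.99 and 0.48 with the sides apart (adjusted p = 0.0010 and 0.011). The list's medians were 0.07 at 2 Gy, 0.24 at 10 Gy and 0.01 at 5x2 Gy, with medians of all genes at -0.00, -0.06 and -0.02. Probes of Il6, Icam1, Ccl5, Il1a, Il1b and Nos2 did not pass the filter.

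Most list calls were lost with slide as a random block. Over the 90 different list genes tested other than the members, 0 of 22 calls at 2 Gy, 13 of 27 at 10 Gy and 8 of 35 at 5x2 Gy remained, and with the sides apart 0 of 27, 18 of 32 and 7 of 30. Over all genes the block changed the number called from 2274 to 21, from 3783 to 1464 and from 5492 to 817. With the sides apart these changes were from 2917 to 65, from 3894 to 2077 and from 3672 to 811. Every 2 Gy call of a list gene named above was among those lost. Their 10 Gy calls held (limma adjusted p = 0.0033 to 0.027, and 0.0018 to 0.048 with the sides apart). At 5x2 Gy Pias4, Ikbkg, Bcl2l1, Nfkbil1 and Il1rap were still called, Il1rap over the whole array alone (adjusted p = 0.070 with the sides apart), whereas Usp10, Cxcl5, Traf4, Tnip2 and Chuk were not.

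Genes whose log2 ratios followed those of Nfkbia most closely over the 8 arrays were Ipw, Enthd1, Adamts12, Zfp212 and Tbrg1, with Pearson r from 0.92 to 0.97. With the sides apart r was 0.86 to 0.97. Within the family r with Nfkbia ran from 0.60 for Rela to -0.72 for Nfkbie, and with the sides apart from 0.44 for Rela to -0.56 for Birc2. These correlations describe 8 arrays that share regimens, slides and the untreated cell line, and carry no test.

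The arrays held 45220 spots each, and the share of probes above the threshold ran from 44.8% to 49.1% in Cy3 and from 34.7% to 47.5% in Cy5. Cdkn1a, the textbook p53 target, served as a check of irradiation and rose by 2.598 ± 0.39 at 10 Gy (3.73 and 1.47 on its 2 arrays; limma adjusted p = 0.0017) and 1.27 ± 0.32 at 5x2 Gy (adjusted p = 0.012), with 0.88 at 2 Gy (adjusted p = 0.088). Log2 ratios of the arrays correlated with r of 0.65 to 0.81 over genes within 2 Gy, 0.43 between the 10 Gy arrays and 0.83 to 0.89 within 5x2 Gy, where all arrays share the step. The second 10 Gy array, which has the step too, correlated with the 5x2 Gy arrays at 0.75 to 0.85. The first 10 Gy array correlated with all others at 0.36 to 0.51. Its log2 ratios had an SD of 0.69 over genes, and those of the other arrays 0.33 to 0.46. Keratin genes Krt8 and Krt18 and Vim were above the threshold on all 8 arrays, whereas no probe of Epcam, Cdh1, Ptprc, Adgre1, Csf1r or Pecam1 passed the filter.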

How the data were processed

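2-colour arrays of total RNA from 8 LLC1 samples were analysed. Per the file headers, the deposited scanner tables give, per spot, the intensity of both dyes as a mean over pixels with no correction or normalization applied and no background value. The authors' deposited value table is on a log2 scale, Cy5 relative to Cy3: set against loess ratios computed here from the same arrays without background correction, its columns gave r of 0.998 to 1.000 over kept probes. How the authors normalized it is not given in the sources used here. Its values carry the step between the sides too, at 0.35 to 0.425 log2 units on slide 2.

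Mean signals were corrected with normexp on the foreground (offset 50) and normalized by loess within each array (limma 3.58.1 under R 4.3.3), with control spots given a weight of 0 and replicate spots averaged. Probes passed (21685) when 1 channel on at least 2 arrays lay more than 2.6 robust SD above the median of the 153 negative control spots, and the brightest kept probe stood for a gene. Of the probes 27897 took a current symbol through RefSeq, 7047 kept that of the array and 6230 had none. limma was fitted with 1 mean per regimen over all 8 arrays (5 residual degrees of freedom). SE values come from this fit, and p-values measure the spread between arrays. In an alternative chosen after seeing the data, the sides of each array were corrected and normalized apart, split after the column where the ratios dropped most (5 columns compared on each side, mean over the arrays), with the same probes. The slides were read from the image names in the headers. On simulated data of 13410 genes, modelled on 10 Gy against untreated cells, the fit recovered 9% of changes of 0.5 log2 units and 63% of changes of 1. The simulation changed only a small part of the genes, with noise independent between arrays. In the data 28.2% of genes were called at 10 Gy and the within-slide correlation was 0.70, so these recovery shares need not hold there. Precision is limited by how few arrays there are.

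The members and lists were chosen with earlier results of these data known. Named genes were all members, up to 4 called genes of smallest p per list and comparison, of which the text gives a part, Cdkn1a, and the 5 genes most correlated with Nfkbia. Alternatives tried were background correction, median centring, the series matrix, the filter, the mean of probes, slide and replicate blocks, single regimens and leaving out arrays. Promoter windows come from RefSeq (GRCm38.p6). Protein sequences were not used here.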

Additional observations from a re-analysis of the deposited data

Results flagged for a closer look

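Genes of the pathway lists that differed between 10 Gy and 2 Gy by the test of that difference (limma over all 13410 genes, Benjamini-Hochberg adjusted) are given here. Ikbkg differed by 0.73 (adjusted p = 0.045), with log2 ratios of 0.01, 0.12 and 0.26 at 2 Gy and 1.02 and 0.69 at 10 Gy, and by 0.65 with the sides apart (adjusted p = 0.096). The mean of its 3 kept probes gave 0.37. Traf4 differed by 1.02 (adjusted p = 0.022), with 0.11, 0.04 and 0.21 at 2 Gy and 1.00 and 1.28 at 10 Gy, and by 0.95 with the sides apart (adjusted p = 0.022). The mean of its 2 kept probes gave 0.59. Tnip2 differed by 0.76 (adjusted p = 0.042), and by 0.68 with the sides apart (adjusted p = 0.072). Myd88 differed by 0.80 (adjusted p = 0.038), and by 0.80 with the sides apart (adjusted p = 0.052). Cxcl5 was lower at 10 Gy, at -1.21 (adjusted p = 0.023), with 1.31, 0.86 and 0.87 at 2 Gy and -0.39 and -0.00 at 10 Gy, and at -1.29 with the sides apart (adjusted p = 0.016). None of these 5 differences was called with the replicate block or without any 1 of the 2 Gy or 5x2 Gy arrays.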

How the results depend on the processing

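No sign of Nfkb2, Rela, Nfkbia or Tnfaip3 against untreated cells changed under any alternative, and their 5x2 Gy calls held in every leave-one-out fit. For the signs in leave-one-out and single-regimen fits this was fixed in advance, as all 8 values of each gene lay on 1 side of 0. The cause of the changes given here was not tested. Members called at 2 Gy (2) became 5 with median centring, 6 with the regimen fitted alone, 4 with slide as a fixed block, 0 with slide as a random block, 0 with that and the sides apart, and 0 to 7 leaving out 1 array, with 7 without either 10 Gy array and 0 without 2 Gy replicate 2 or 3. At 10 Gy (4) they became 0 fitted alone, 7, 1 and 1 with the slide blocks in that order, and at 5x2 Gy (4) 0 and 0 with the random block. Between 10 Gy and 2 Gy (0) they became 3, 1 and 1, and 0 to 3 leaving out 1 array. Between 5x2 Gy and 2 Gy (0) they became 1 with the fixed block and 0 to 2, and between 5x2 Gy and 10 Gy (0) 0 to 2, leaving out 1 array.

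Genes called at 2 Gy (2274) became 3610 with median centring, 4818 fitted alone, 4463 with the fixed slide block, 21 with the random block, 65 with that and the sides apart, and 408 to 5383 leaving out 1 array. At 10 Gy (3783) they became 280 fitted alone, 6520, 1464 and 2077 with the slide blocks, and 2913 to 6080. At 5x2 Gy (5492) they became 8446 with no filter, 817 and 811 with the random block, and 3010 to 7983. Between 10 Gy and 2 Gy (343) they became 72 with the sides apart, 4299, 2896 and 2417 with the slide blocks, and 0 to 4299. Between 5x2 Gy and 2 Gy (175) they became 7 with the sides apart, 746 with median centring, 2369 with the fixed block, 0 with the sides apart and random block, and 0 to 4003. Between 5x2 Gy and 10 Gy (0) they became 0 to 5786, the last without the second 10 Gy array.

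Deviations from the regimen means correlated at -0.24 to 0.11 for same-numbered arrays and at -0.11 to 0.24 for differently numbered ones. Deviations within a regimen are tied to each other by their shared mean. These ranges therefore cannot decide whether the replicate numbers pair the samples. With the replicate block 2, 3 and 4 members were called at 2 Gy, 10 Gy and 5x2 Gy and 0 between regimens, and Nfkb1 at 10 Gy was lost (-0.48, adjusted p = 0.064). The replicate block left 1420 genes at 2 Gy, 2276 at 10 Gy, 0 between 10 Gy and 2 Gy and 0 between 5x2 Gy and 2 Gy. Map3k3 at 5x2 Gy reversed to -0.17 with the fixed slide block. Median centring moved the median of all genes at 2 Gy from -0.00 to 0.13, and the share of higher calls from 53.1% to 82.3% at 2 Gy, 44% to 58.7% at 10 Gy, 40.5% to 20.9% between 10 Gy and 2 Gy, and 29.1% to 7.1% between 5x2 Gy and 2 Gy. With the sides apart the 5x2 Gy share went from 42.9% to 54.7%. Signals near the threshold limit Nfkbie, Birc2 and Birc3.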
